A study of Homo sapiens with 16 samples.

Results

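Poly(A) RNA was sequenced from 2 human tumor lines, Ishikawa (endometrioid adenocarcinoma of the uterus) and T-47D (breast carcinoma), after 0, 2, 4 and 8 h with 10 nM 17beta-estradiol (E2). The results below describe the 4 late Ishikawa libraries, those labelled 4 h and 8 h, out of 8 Ishikawa libraries and 16 libraries in all. Expression profiles of these libraries fell into a split that crosses their time labels. The libraries labelled 4 h replicate 1 and 8 h replicate 2 are called pair A, and those labelled 4 h replicate 2 and 8 h replicate 1 are called pair B. Both lines had been moved to phenol-red free medium with charcoal-stripped serum before treatment, so every group, the vehicle-treated 0 h group included, shared hormone deprivation. Each time point had 2 replicates, and no label says that replicates came from separate cultures, so p-values measure the spread between these libraries only. Pairs A and B were chosen from the expression values themselves and are not groups that the labels give. Every difference between them is therefore a description with no test, and the time labels were kept as given.

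E2 binds the estrogen receptor, a nuclear receptor encoded by ESR1 that binds DNA as a dimer and acts largely through distal enhancers. Some targets respond directly and early, while later responses depend in part on factors made in the first wave, such as MYC, growth factors and cell cycle regulators. In estrogen-responsive epithelial tumor cells, the late program is known for ribosome production, amino acid supply and entry into DNA replication.

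The labelled cell line was checked against its defining markers in the late libraries. In this paragraph, CPM is the gene's count scaled to a common library size by library totals alone, without TMM factors. PAX8, a Müllerian lineage transcription factor, lay between 189 and 220 CPM in the 4 Ishikawa libraries. It lay between 0 and 0.039 CPM in the 4 late T-47D libraries. GATA3, a luminal breast factor, lay between 0 and 0.09 CPM in Ishikawa and between 1109 and 1145 CPM in T-47D cells. Other breast markers were less clean. SPDEF lay between 0.656 and 0.918 CPM in Ishikawa and between 209 and 242 CPM in T-47D cells. TRPS1 was present in both lines, at 32.6 to 36.0 CPM in Ishikawa and 1327 to 1491 CPM in T-47D cells. TFAP2B and ANKRD30A did not exceed 0.638 CPM in either line, so they did not mark T-47D cells here. ESR1 itself was at 170 to 179 CPM in the late Ishikawa libraries. The 11 immune, endothelial and stromal markers summed to 181 and 194 CPM in pair A and 223 and 245 CPM in pair B. Most of this was COL1A1. VWF was at 5.731 and 5.067 CPM in pair A and 6.96 and 7.095 CPM in pair B. ACTA2 was at 20.181 and 20.045 CPM in pair A and 26.923 and 24.525 CPM in pair B. COL1A1, COL3A1 and CD68 were likewise higher in both libraries of pair B, while COL1A2 overlapped between the pairs. CD3E was at 0 in all 4 libraries, and PTPRC, PECAM1, DCN and LUM did not exceed 0.121 CPM. The summed level was lower in pair A, and its part in the pair difference was not tested. Library totals ran from 41177912 to 58918642 counts in Ishikawa cells and from 41223813 to 64148903 in T-47D cells. Pair A held 41177912 and 44599048 counts, and pair B held 41377138 and 58918642, so the deepest library belonged to pair B.

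Library profiles were compared first. From here on, CPM is the gene's count scaled to a common library size with TMM factors. The standard deviation of the log2 CPM difference over 13264 genes was 0.196 between the 2 libraries of pair A and 0.184 between those of pair B. It was 0.229 between the 2 libraries labelled 4 h and 0.207 between the 2 labelled 8 h. Libraries within a pair were thus closer to each other than libraries with the same label. In T-47D cells, libraries with the same time label were the closest, at 0.163 for 4 h and 0.184 for 8 h against 0.195 to 0.209 across labels. Pair B lay nearer to the Ishikawa 2 h libraries, at 0.213 to 0.228, than pair A did, at 0.280 to 0.294.

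**Figure D1:**
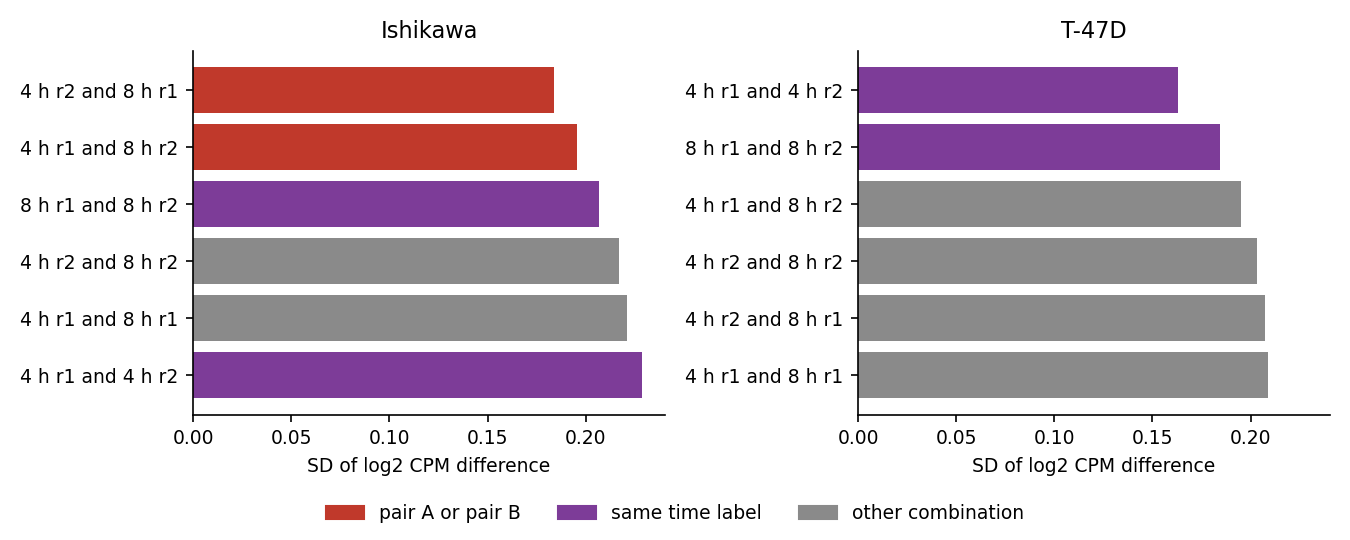
The horizontal axis gives the standard deviation of log2 CPM differences between 2 libraries, over 13264 genes in Ishikawa and 13055 in T-47D cells, for each combination of the 4 late libraries in a line (r1 and r2 are replicates). In Ishikawa cells the shortest bars, 0.184 and 0.196, join libraries with different time labels, while in T-47D cells the shortest, 0.163 and 0.184, join libraries with the same label.

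Each gene has 2 higher and 2 lower libraries among the 4, so it falls into exactly 1 of 3 splits. Of 15787 expressed genes, 6889 (43.6%) had no overlap between pair A and pair B, 5225 (33.1%) had none between the labelled times, and 3673 (23.3%) had none between the replicate numbers. A gene was said to separate the pairs when its mean was at least 1 CPM, the gap between pairs exceeded the difference within either pair, and the pair means differed by at least 0.3 on the log2 scale. By this rule 119 genes were higher in pair A (0.754% of all genes) and 325 were higher in pair B (2.06%). The median size of the difference was 0.405 for the genes higher in A, with a maximum of 0.997, and 0.429 for those higher in B, with a maximum of 1.43. Both groups held genes of low level, with median CPM of 7.52 and 5.36 against 22.2 over all genes. SCGB2A1, at 0.3004, and SYNJ2, at -0.3015, stood just inside the threshold, and MBOAT1, at -0.2997, and FAM86HP, at -0.299, just outside it. Leaving out 1 late library leaves a pair with a single library and no spread of its own, and the rule then took 242 genes higher in A and 639 higher in B without 4 h replicate 1, 265 and 669 without 8 h replicate 2, 310 and 504 without 4 h replicate 2, and 231 and 688 without 8 h replicate 1.

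By the labels, few genes were called between the same 4 libraries. That test counts the pair difference within each label as spread between replicates, so few calls do not show that nothing changed. Between labelled 8 h and 4 h, 2 of 15787 genes (0.0127%) passed an adjusted p of 0.05 in edgeR, with 554 at an unadjusted p under 0.05. DDT, D-dopachrome tautomerase, was at 4.34 and 3.76 CPM in the libraries labelled 4 h and at 10.4 and 16.9 CPM in those labelled 8 h (log2 fold change 1.75, adjusted p = 0.00685). GOLGA8R was at 5.43 and 6.30 CPM against 2.53 and 2.03 CPM (log2 fold change -1.35, adjusted p = 0.0149). Both genes have near-identical copies in the genome, so their read assignment is uncertain. DESeq2 also called 2 genes. Without 4 h replicate 1, the edgeR count was 5.

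The genes highest in pair A relative to pair B included secreted and membrane proteins. SLIT3, a secreted guidance ligand of ROBO receptors (chr5:168088745-168728143, GRCh37, minus strand), was at 99.0 and 106 CPM in pair A and at 54.3 and 51.7 CPM in pair B, against 36.5 to 37.6 CPM in the 0 h and 2 h libraries. SLIT3 thus stood above its earlier level in all 4 late libraries and farther above it in pair A. ANO1, a calcium-activated chloride channel (chr11:69832013-70035636), was at 63.9 and 66.0 CPM in pair A and at 37.1 and 35.8 CPM in pair B. At 0 h ANO1 was at 5.78 and 6.03 CPM, and it rose by 2 h (log2 fold change 0.99, adjusted p = 0.000211). PEG10, an imprinted gene derived from a retrotransposon (chr7:94285637-94299007), was at 1624 and 1645 CPM in pair A, 1093 and 1113 CPM in pair B, and 641 to 811 CPM in the earlier libraries. These 3 genes had the same order of libraries: earlier time points lowest, then pair B, then pair A. The pair differences were 0.95, 0.83 and 0.57 on the log2 scale. KCNQ5, a potassium channel subunit, was at 6.28 and 6.26 CPM in pair A and at 3.15 and 3.12 CPM in pair B beside 2.36 to 3.08 CPM in the 0 h and 2 h libraries. ENOX1 had the largest difference, 1.00, at 3.18 and 3.13 CPM against 1.43 and 1.70 CPM.

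ALPP and ALPPL2 encode the placental and germ cell alkaline phosphatases, and alkaline phosphatase is a classical estrogen-induced enzyme of Ishikawa cells. ALPP (chr2:233243434-233247599, GRCh37) was at 12.1 and 11.3 CPM in pair A and at 7.24 and 5.87 CPM in pair B. ALPPL2 (chr2:233271554-233275424), listed as ALPG in newer annotation, was at 28.3 and 28.3 CPM in pair A and at 15.4 and 14.6 CPM in pair B. The genes are near-identical copies, so reads may be divided between them, and their sum was 40.3 and 39.4 CPM in pair A, 22.5 and 20.4 CPM in pair B, 10.0 and 9.75 CPM at 2 h, and 2.38 and 2.04 CPM at 0 h. Summed or separate, the order was 0 h, 2 h, pair B, pair A. Their promoters, 300 bases around the start of each gene in RefSeq on GRCh38.p14, lie on the plus strand at chr2:232378501-232378800 and chr2:232406594-232406893. They are shown because they bear on how alike the copies are, with capitals marking the bases that differ between them in a global alignment, in which 254 of 307 columns (82.7%) were identical.
ALPP: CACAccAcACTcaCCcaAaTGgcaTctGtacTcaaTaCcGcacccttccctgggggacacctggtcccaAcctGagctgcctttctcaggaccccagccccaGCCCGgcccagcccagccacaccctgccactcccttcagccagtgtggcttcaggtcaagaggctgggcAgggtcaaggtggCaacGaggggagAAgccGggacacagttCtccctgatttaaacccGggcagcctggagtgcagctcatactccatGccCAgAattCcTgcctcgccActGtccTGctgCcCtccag
ALPPL2: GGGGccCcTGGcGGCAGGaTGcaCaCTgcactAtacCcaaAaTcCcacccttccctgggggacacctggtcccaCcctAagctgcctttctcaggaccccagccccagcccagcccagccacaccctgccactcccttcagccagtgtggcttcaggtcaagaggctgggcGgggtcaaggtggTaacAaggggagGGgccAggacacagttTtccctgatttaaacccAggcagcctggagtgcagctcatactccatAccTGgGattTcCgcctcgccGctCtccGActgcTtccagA

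**Figure D2:**
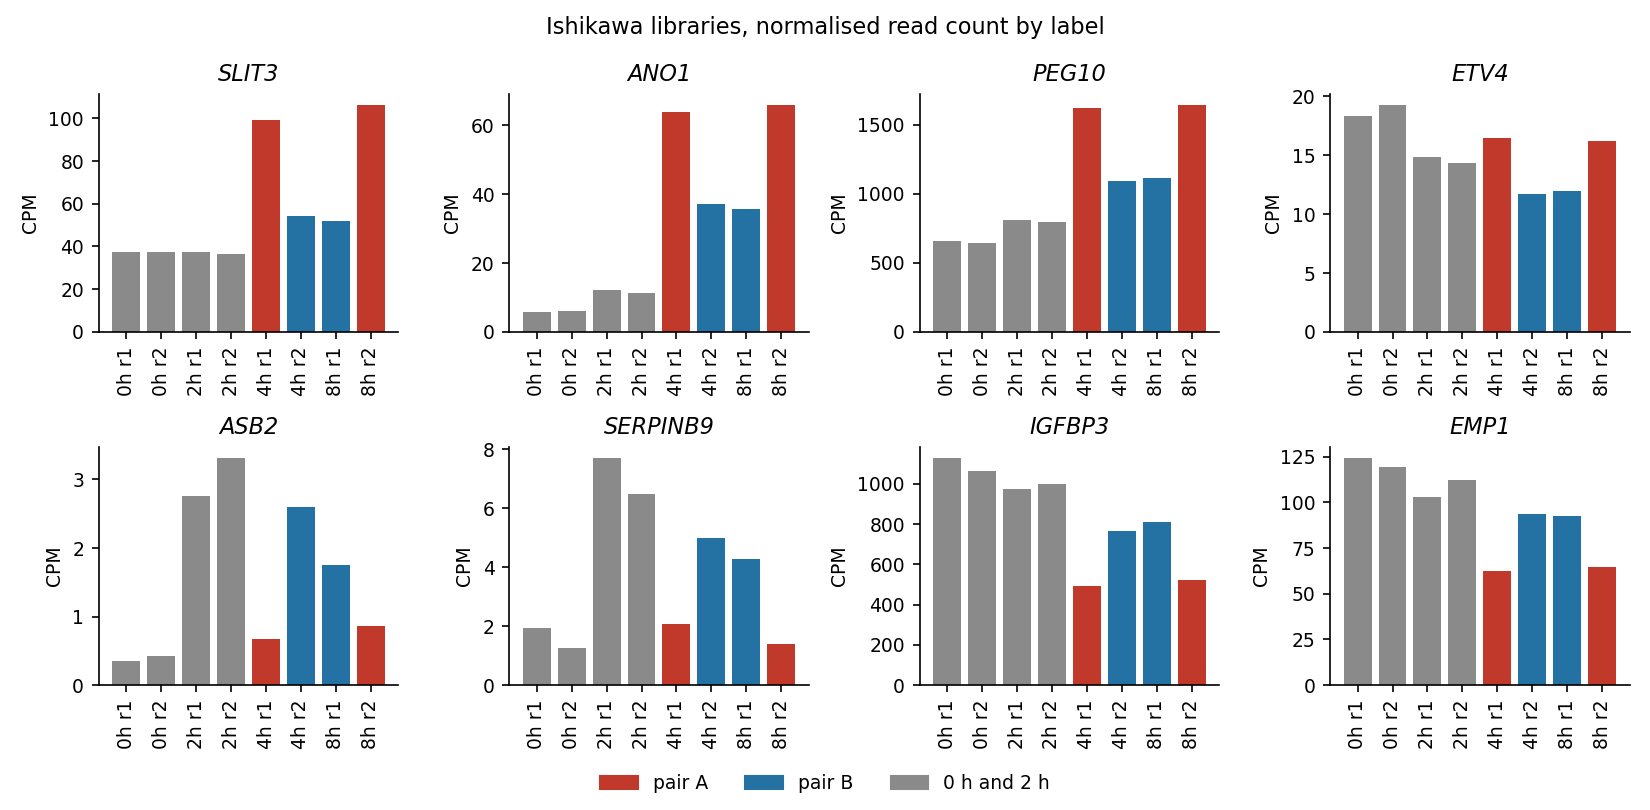
Each panel gives TMM-scaled CPM of 1 gene (vertical axis, linear from 0) in the 8 Ishikawa libraries by label, with 1 bar a library and no error bar. The upper row holds genes higher in pair A, such as SLIT3 at 99.0 and 106 CPM against 54.3 and 51.7 CPM in pair B, and the lower row genes higher in pair B, such as IGFBP3 at 765 and 809 CPM against 493 and 522 CPM in pair A.

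Genes higher in pair B included some that rose by 2 h and some below their 0 h level in pair A. ASB2, a substrate receptor of ubiquitin ligases (chr14:94400512-94443085, minus strand), was at 2.59 and 1.75 CPM in pair B and at 0.670 and 0.868 CPM in pair A. ASB2 had 0.348 and 0.429 CPM at 0 h, then 2.76 and 3.31 CPM at 2 h, so both pairs lay above 0 h and below 2 h, pair A lower than pair B. SERPINB9, an inhibitor of granzyme B (chr6:2887504-2903543, minus strand), was at 4.99 and 4.26 CPM in pair B and 2.08 and 1.39 CPM in pair A, after 7.70 and 6.48 CPM at 2 h. Both rose from 0 h to 2 h when only those libraries were fitted (log2 fold changes 2.96 and 2.14, adjusted p = 2.93e-05 and 3.72e-05). MCF2L, a guanine nucleotide exchange factor, was at 49.95 and 49.6 CPM in pair B, 28.5 and 27.7 CPM in pair A, 14.8 and 14.9 CPM at 0 h, and 32.6 and 32.9 CPM at 2 h. MCF2L, unlike ASB2 and SERPINB9, was thus highest in pair B. The pair differences were -1.43 for ASB2, -1.41 for SERPINB9 and -0.82 for MCF2L.

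The second kind was lower in pair A than at any earlier time. IGFBP3, a binding protein of insulin-like growth factors (chr7:45951844-45961473, minus strand), was at 493 and 522 CPM in pair A, 765 and 809 CPM in pair B, and 976 to 1128 CPM in the 0 h and 2 h libraries. EMP1, an epithelial membrane protein, was at 62.7 and 64.7 CPM in pair A, 93.6 and 92.5 CPM in pair B, and 103 to 124 CPM earlier. NOTCH3, a Notch receptor, was at 138 and 148 CPM in pair A and 191 and 175 CPM in pair B. LAMA3, a laminin chain of epithelial basement membranes, was at 44.2 and 44.1 CPM in pair A and 55.4 and 54.6 CPM in pair B. For IGFBP3, EMP1, NOTCH3 and LAMA3, all 4 late libraries lay below the earlier ones, and pair A lay lowest. AGR2, a protein disulfide isomerase family member, was at 1.02 and 0.685 CPM in pair A and 1.91 and 2.19 CPM in pair B. Over the 325 genes higher in pair B, the median of pair A minus 0 h was -0.48 and that of pair B minus 0 h was -0.06, and pair A lay farther from 0 h than pair B for 244 of them. Over the 119 genes higher in pair A, the corresponding medians were 0.27 and -0.19, and pair A lay farther from 0 h for 62. These medians and counts come from genes chosen by the same late values, and no share over all genes stands beside them. They are therefore not read as a property of these genes. Over 13264 genes, the standard deviation of the log2 CPM difference from the 0 h libraries was 0.370 to 0.419 for pair A and 0.330 to 0.399 for pair B.

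Genes that responded within 2 h of E2 were examined next, using only the 0 h (vehicle) and 2 h libraries, which had no part in choosing the pairs. In that fit 666 of 15558 genes passed, 369 up and 297 down. Among the 15522 of these genes also measured in the pairs, 2.38% were called up and 1.91% down. Of the 119 genes higher in pair A, 17 (14.3%) were called up at 2 h and 20 (16.8%) down. Of the 325 higher in pair B, 34 (10.5%) were called up and 4 (1.23%) down. Read the other way, 235 of the 369 genes up at 2 h were higher in pair B, with a median pair difference of -0.07, and 206 of the 297 genes down at 2 h were higher in pair A, with a median of 0.08, beside -0.01 over all genes. The called number at 2 h was 4642 without 0 h replicate 1, 1198 without 0 h replicate 2, 432 without 2 h replicate 1 and 422 without 2 h replicate 2.

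Targets and feedback inhibitors of the ERK MAP kinase pathway were among the genes that fell at 2 h. Of 25 measured members of this list, 7 fell and 2 rose at 2 h (1.91% and 2.38% over all genes), 21 were higher in pair A, and 5 separated the pairs, all higher in A. The list median was 0.11 between pairs. It was 0.17 without 4 h replicate 1 and 0.14 without 4 h replicate 2, but 0.08 without 8 h replicate 2 and 0.09 without 8 h replicate 1. Without 8 h replicate 2, 18 of the 25 were higher in pair A, as they were without 8 h replicate 1 or with unscaled library totals (median 0.09). SPRY2, a feedback inhibitor of receptor tyrosine kinase signaling (chr13:80910111-80915261, minus strand), was at 32.0 and 33.2 CPM at 0 h, 12.6 and 12.8 CPM at 2 h, 21.7 and 20.7 CPM in pair B, and 27.4 and 26.6 CPM in pair A. DUSP6, an ERK phosphatase (chr12:89741012-89746278, minus strand), was at 50.5 and 55.1 CPM at 0 h, 27.6 and 29.1 CPM at 2 h, 45.0 and 46.8 CPM in pair B, and 58.2 and 57.6 CPM in pair A. SPRY2 and DUSP6 thus had their lowest level at 2 h, with pair B between that level and pair A. ETV5, an ETS transcription factor, was at 69.1 and 70.9 CPM in pair A and 50.5 and 47.4 CPM in pair B, beside 48.4 and 50.01 CPM at 2 h. ETV4, of the same family, was at 16.5 and 16.2 CPM in pair A and 11.7 and 11.95 CPM in pair B. It was at 18.3 and 19.3 CPM at 0 h and 14.8 and 14.4 CPM at 2 h. Unlike SPRY2 and DUSP6, ETV4 was thus lowest in pair B. EPHA2, a receptor tyrosine kinase, was at 109 and 115 CPM in pair A and 93.3 and 88.4 CPM in pair B. The pair differences of the 5 genes ran from 0.30 for EPHA2 to 0.52 for ETV5. All 5 fell at 2 h, from -0.37 for ETV4 (adjusted p = 0.0424) to -1.36 for SPRY2 (adjusted p = 1.22e-06).

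Small differences were shared by many genes of ribosome production. Among 51 measured genes of ribosome biogenesis and RNA polymerase I, 48 were higher in pair A, and 37 of these had no overlap between pairs while none had the reverse, beside 3357 and 3532 of all 15787 genes. The median difference was 0.12, and 1 gene, SRM, passed the separation rule. SRM is on this list but encodes an enzyme of polyamine synthesis, so no ribosome factor on the list separated the pairs. SRM, spermidine synthase (chr1:11114641-11120077, GRCh37, minus strand), was at 131 and 126 CPM in pair A, 103 and 102 CPM in pair B, and 84.3 to 89.1 CPM in the earlier libraries. Of 81 cytoplasmic ribosomal protein genes, 78 were higher in pair A (median 0.10), as were 65 of 76 mitochondrial ribosomal protein genes (0.08), 63 of 70 respiratory chain and ATP synthase genes (0.09) and 33 of 35 proteasome subunit genes (0.06). Over all genes 47.9% were higher in pair A. Thus these lists leaned to pair A by shifts well under the separation threshold. Without 8 h replicate 1, the deepest library, 67 of 81 cytoplasmic ribosomal protein genes were higher in A with a median of 0.05, and 53 of 70 respiratory chain genes with a median of 0.03. The cytoplasmic median was 0.16 without 4 h replicate 2, and 51 of 76 mitochondrial ribosomal protein genes were higher in A, with a median of 0.05, without 4 h replicate 1. Cytoplasmic ribosomal protein genes took 6.36% and 6.19% of counts in pair A and 6.19% and 5.76% in pair B.

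Amino acid supply showed the same lean. Of 44 targets of ATF4, the transcription factor of the amino acid response, 37 were higher in pair A (median 0.06, or 0.04 with unscaled library totals), and SLC3A2, the heavy chain of large neutral amino acid transporters, separated the pairs at 948 and 921 CPM in pair A against 759 and 728 CPM in pair B. NDUFA11, a complex I subunit, separated them at 229 and 208 CPM against 177 and 151 CPM. BNIP3, a mitophagy receptor and hypoxia target, was at 33.9 and 33.0 CPM in pair A and 26.98 and 26.8 CPM in pair B. SLC3A2 and BNIP3 stood above their 0 h and 2 h ranges in all 4 late libraries, highest in pair A.

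Some lists leaned to pair B. Of 28 interferon-stimulated genes, 24 were higher in pair B (median -0.13). MX1, an antiviral GTPase, was at 1.60 and 1.51 CPM in pair B against 1.14 and 1.05 CPM in pair A, while DDX58, an RNA sensor also known as RIG-I, went the other way at 17.8 and 18.5 CPM against 21.8 and 24.5 CPM. Of 37 genes of secreted factors, adhesion and extracellular matrix, 26 were higher in pair B, with LAMA3 the 1 separating gene. Their median was -0.08, and it was -0.12 without 8 h replicate 2 and -0.05 without 4 h replicate 2. Of 24 YAP/TEAD targets, 16 were higher in pair B (median -0.05), and 3 separated, namely IGFBP3, MYOF and RBMS3. MYOF, a membrane repair protein, was at 173 and 177 CPM in pair B and 133 and 135 CPM in pair A. Without 4 h replicate 1, 13 of the 24 YAP/TEAD targets were higher in pair B and the median was -0.01, and without 8 h replicate 2 it was -0.08.

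Replication-dependent histone genes, whose transcripts mostly lack a poly(A) tail, were at low levels in these poly(A) libraries. Of 14 measured, 10 were higher in pair B and none separated the pairs. No overlap was seen for 6 higher in pair B and 1 higher in pair A, beside 3532 and 3357 of all 15787 genes. The median was -0.11, but it ran from -0.35 without 8 h replicate 1 to -0.01 without 8 h replicate 2, and was -0.23 without 4 h replicate 1 and -0.17 after thinning. HIST1H1E, a linker histone, was at 0.397 and 0.183 CPM in pair A and 0.775 and 0.594 CPM in pair B. RPPH1, the RNA of ribonuclease P, was at 0.570 and 0.274 CPM in pair A and 2.62 and 1.09 CPM in pair B, and RMRP, the RNA of ribonuclease MRP, at 0.695 and 0.502 CPM against 1.55 and 0.968 CPM. All 3, named for the size of their differences, lacked overlap between the pairs, as did 43.6% of all genes. Over the 15 measured nuclear-retained and small noncoding RNAs 9 were higher in pair B (median -0.04, or 0.13 without 4 h replicate 2 and 0.00 without 4 h replicate 1). The part of RNA without a poly(A) tail in the pair difference was not tested.

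Cell cycle genes did not move with the pairs to the same extent. Of 47 genes of DNA replication and nucleotide supply, 30 were higher in pair A, none separated, the differences ran from -0.13 to 0.15 and the median was 0.02. That median was -0.02 without 4 h replicate 1 and -0.01 with unscaled library totals, so its sign was not stable. Of 46 G2/M and spindle genes, 32 were higher in pair A with a median of 0.03, which was 0.01 without 4 h replicate 1, without 4 h replicate 2 or with unscaled library totals, and 0.05 without 8 h replicate 1. For 24 G1 cyclin, E2F and G1 kinase genes the median was -0.03, and it was 0.01 without 4 h replicate 1, -0.02 without 8 h replicate 2 and 0.00 without 8 h replicate 1. CDKN1C, an inhibitor of G1 kinases, separated the pairs at 5.69 and 5.99 CPM in pair B against 4.59 and 4.59 CPM in pair A. Of 36 estrogen targets taken from the study or classical, a list chosen in part on such data and so no independent evidence, 4 separated with higher levels in pair A (ALPP, ALPPL2, ANO1 and PEG10) and 2 with higher levels in pair B, HSPB8 among them at 3.97 and 3.41 CPM against 2.01 and 2.40 CPM in pair A. GREB1, TGFA and PGR did not separate. GREB1 was at 28.8 and 32.0 CPM in pair A and 26.7 and 24.8 CPM in pair B, and TGFA at 552 and 559 CPM against 565 and 605 CPM.

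The late change in T-47D cells was then set beside the pairs. These libraries had no part in choosing the pairs. Between T-47D 8 h and 4 h, edgeR called 533 of 15594 genes, 326 up and 207 down. Of the 14307 genes tested in both lines, 314 (2.19%) were called up and 198 (1.38%) down. Of the 314 genes up at 8 h in T-47D cells, 66 were higher in pair B and the others (79.0%) in pair A, with a median pair difference of 0.09. Of the 198 genes down, 128 were higher in pair B and 70 (35.4%) in pair A, with a median of -0.06. Over all 14307 genes 48.5% were higher in pair A and the median was -0.01. By the labels, 110 of the 314 were higher and 204 lower in the Ishikawa libraries labelled 8 h (median -0.03), and 94 of the 198 were higher and 104 lower. Across all 14307 genes, which are not independent, the correlation of the pair difference with the T-47D fold change was Pearson's r = 0.114 and Spearman's rho = 0.20, and over the 512 called genes r = 0.254 and rho = 0.35. With the label difference in place of the pair difference, r was 0.00034 and rho -0.07 over all genes, and r was 0.175 and rho -0.02 over the called genes.

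**Figure D3:**
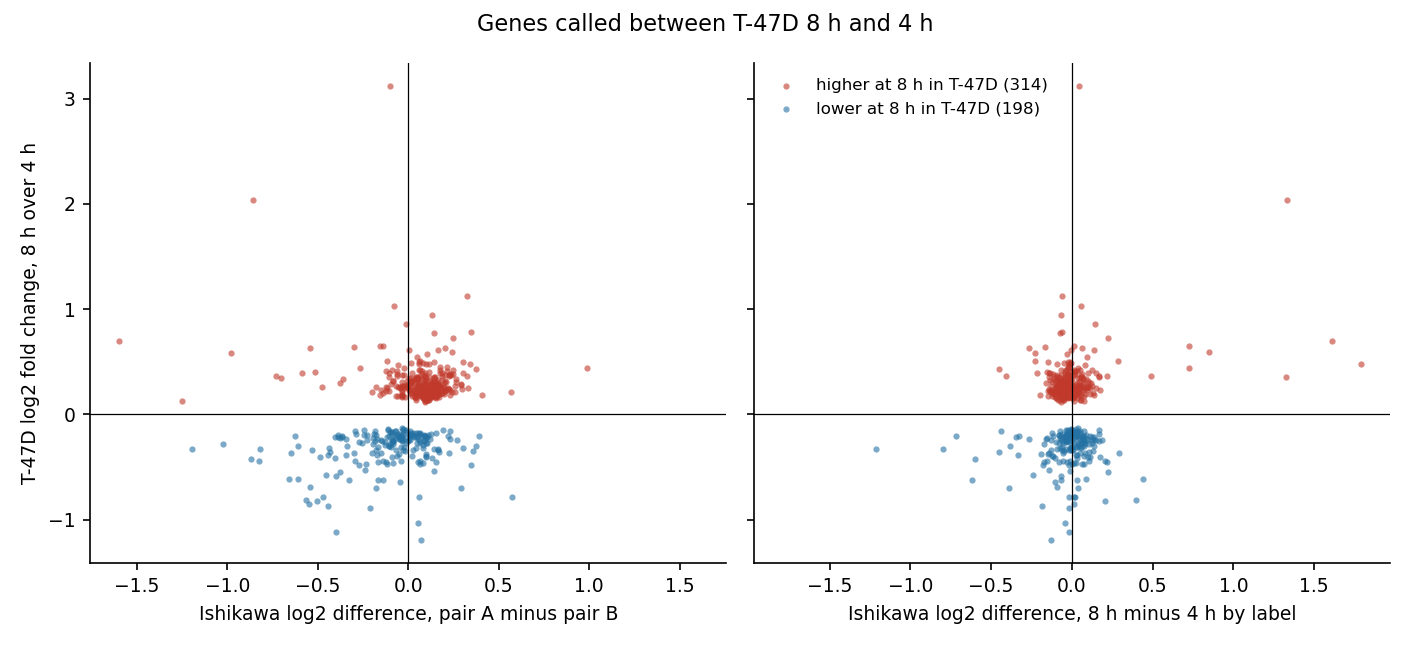
Each point is 1 of 512 genes called between T-47D 8 h and 4 h, with its T-47D log2 fold change on the vertical axis. The horizontal axis is the Ishikawa log2 difference, pair A minus pair B on the left and labelled 8 h minus 4 h on the right, and 79.0% of the 314 genes up in T-47D lie right of 0 on the left panel against 110 genes on the right panel.

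The lean was small per gene and was not carried by 1 list. The 16 cytoplasmic ribosomal protein genes up in T-47D cells were all higher in pair A (median 0.11), and 17 of the 25 DNA replication genes were (median 0.03). Of the 273 genes on neither list, 215 (78.8%) were higher in pair A (median 0.10). Leaving out any 1 of the late Ishikawa libraries gave 74.2% to 80.3% for the genes up in T-47D cells. Without T-47D 4 h replicate 1 or replicate 2, edgeR called 190 and 170 genes in place of 533.

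Few separating genes were called in T-47D cells. Of the 119 genes higher in pair A, 92 were tested there, 7 (7.61%) were up and 4 (4.35%) down at 8 h. Of the 325 higher in pair B, 285 were tested, 5 (1.75%) were up and 17 (5.96%) down. These shares stand beside 2.19% up and 1.38% down over all genes tested in both lines. In all, 33 separating genes were called, 24 with pair A in the direction of T-47D 8 h and 9 with the opposite sign.

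Of the genes with the same sign, C2orf54 was at 3.25 and 3.66 CPM at T-47D 4 h and 1.86 and 1.32 CPM at 8 h (log2 fold change -1.12 ± 0.18 SE, adjusted p = 0.00199), and at 10.4 and 10.2 CPM in pair B against 7.79 and 7.79 CPM in pair A. EMP1 fell from 7.36 and 6.36 CPM to 4.16 and 3.44 CPM (-0.86 ± 0.14 SE, adjusted p = 0.00215). C2orf54 and EMP1 passed in all 4 fits that left out a late T-47D library. SPRY2 rose from 2.77 and 2.66 CPM to 4.28 and 5.05 CPM (0.78 ± 0.17 SE, adjusted p = 0.014), and its adjusted p reached 0.115 without T-47D 4 h replicate 2. SRM rose from 56.0 and 57.2 CPM to 70.8 and 64.1 CPM (0.25 ± 0.06 SE, adjusted p = 0.018), with an adjusted p of 0.18 without T-47D 4 h replicate 1. PEG10 rose from 272 and 251 CPM to 309 and 295 CPM (0.21 ± 0.05 SE, adjusted p = 0.0369), with an adjusted p of 0.366 without T-47D 4 h replicate 2. KCNQ5 rose by 0.45 (adjusted p = 0.0369), and TGM2, a transglutaminase that was higher in pair B, fell by 0.78 (adjusted p = 0.0332). Neither KCNQ5 nor TGM2 passed in any of those 4 fits (highest adjusted p 0.237 and 0.298, both without T-47D 4 h replicate 1), and TGM2 did not pass in DESeq2.

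Other separating genes went opposite ways in the 2 lines. SLCO2A1, a prostaglandin transporter, was at 89.4 and 93.2 CPM in pair A and 64 and 58.8 CPM in pair B, and in T-47D cells it fell from 4.25 and 4.07 CPM at 4 h to 2.52 and 2.32 CPM at 8 h (-0.78 ± 0.15 SE, adjusted p = 0.00683). Without T-47D 4 h replicate 1 its adjusted p was 0.0558. SEMA3C, a secreted semaphorin, was lower in pair A, at 139 and 148 CPM against 181 and 188 CPM, and rose by 0.34 ± 0.04 SE in T-47D cells (adjusted p = 0.00032), passing in all 4 such fits. TENM2, a teneurin adhesion protein, was at 4.81 and 4.89 CPM in pair A against 7.99 and 7.84 CPM in pair B, and rose by 0.35 in T-47D cells (adjusted p = 0.00683, or 0.114 without T-47D 4 h replicate 1).

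**Figure D4:**
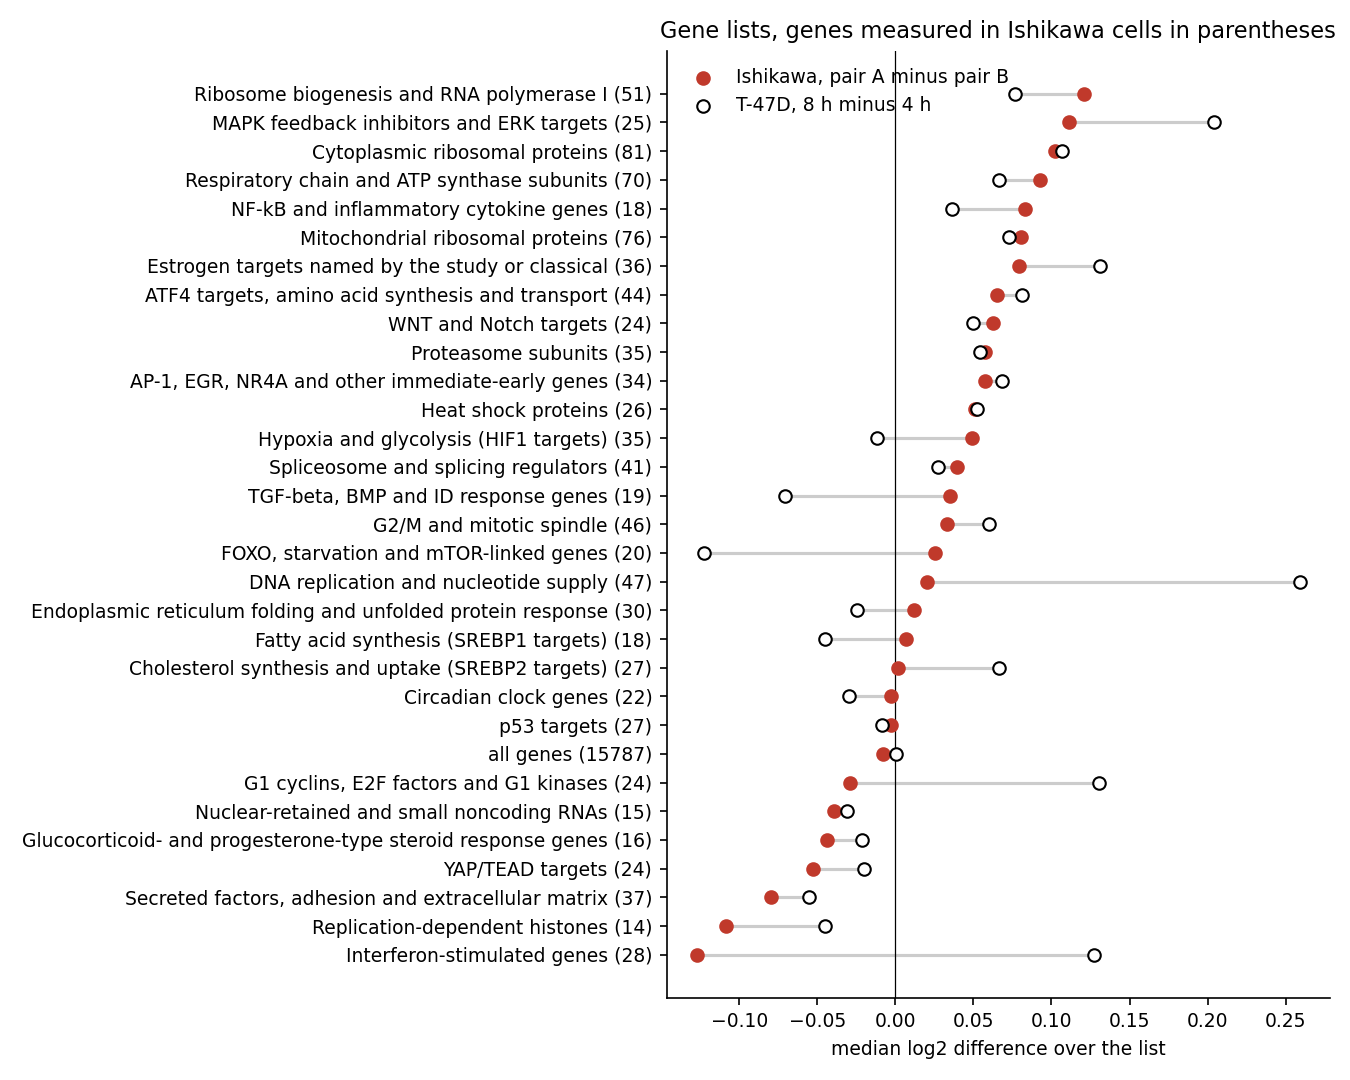
For each gene list, the filled point gives the median log2 difference of pair A minus pair B in Ishikawa cells and the open point the median of T-47D 8 h minus 4 h, with no error bars. Ribosome biogenesis stands at 0.12 and 0.08 and cytoplasmic ribosomal proteins at 0.10 and 0.11, while DNA replication stands at 0.02 and 0.26.

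List by list, the 2 differences were close for some functions and apart for others. In T-47D cells 9 of 51 ribosome biogenesis genes and 16 of 81 cytoplasmic ribosomal protein genes rose from 4 h to 8 h and none fell, with medians of 0.08 and 0.11, beside 2.19% up and 1.38% down over all genes tested in both lines. The ERK list had 6 of 26 tested members up and none down (median 0.20). DUSP6, ETV4 and ETV5 were not called, and ETV4 and ETV5 were at only 0.347 to 0.763 CPM in the late T-47D libraries. The DNA replication list had 25 of 47 up and none down, with a median of 0.26 beside 0.02 between the pairs. The interferon list had opposite medians, -0.13 between the pairs and 0.13 in T-47D cells, where 1 of 38 tested members rose, a share near that of all genes. No list's difference between the lines was tested.

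The cell line difference in the change from 4 h to 8 h was tested by label, as the interaction over all 16 libraries. It passed for 15 of 17090 genes (0.0878%), with 1793 at an unadjusted p under 0.05. The T-47D change minus the Ishikawa change was positive for 11 and negative for 4. That sign does not say in which line the change was larger. Of these 15, 4 were subunits of the MCM2-7 replicative helicase, and E2F1, the transcription factor of S phase entry, was another. These 5 genes were chosen for naming after their values were seen. In T-47D cells MCM2 was at 145 and 145 CPM at 4 h and 201 and 186 CPM at 8 h, while Ishikawa levels were 263 and 248.2 CPM in pair A and 249 and 242 CPM in pair B (difference between lines 0.47 ± 0.08 SE, adjusted p = 0.0174). MCM5 was at 60.9 and 58.5 CPM against 86.8 and 81.1 CPM in T-47D cells, and at 138 and 133 CPM in pair A and 136 and 132 CPM in pair B (0.52 ± 0.08 SE, adjusted p = 0.013). Pairs A and B overlapped for both genes. MCM3 and MCM7 differed between the lines by 0.38 (adjusted p = 0.0326) and 0.42 (adjusted p = 0.0442), and E2F1 by 0.52 (adjusted p = 0.0326). Their pair differences were 0.09, 0.04 and -0.11. Since labelled time and pair cross, the labelled Ishikawa difference averages over the pair difference. The test also counts the pair difference as spread between replicates, so a gene with a large pair difference was less likely to pass. Small pair differences of the genes that passed are thus partly set by the test. The count was 7 without Ishikawa 4 h replicate 1, 8 without Ishikawa 8 h replicate 1, 58 without 4 h replicate 2 and 44 without 8 h replicate 2, and it was 1 without T-47D 4 h replicate 1 and 0 without T-47D 4 h replicate 2 or 8 h replicate 1. For those last 2 fits, edgeR had 1510 and 1146 genes at an unadjusted p under 0.05 and DESeq2 called 41 and 28. With all libraries DESeq2 called 132.

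**Figure D5:**
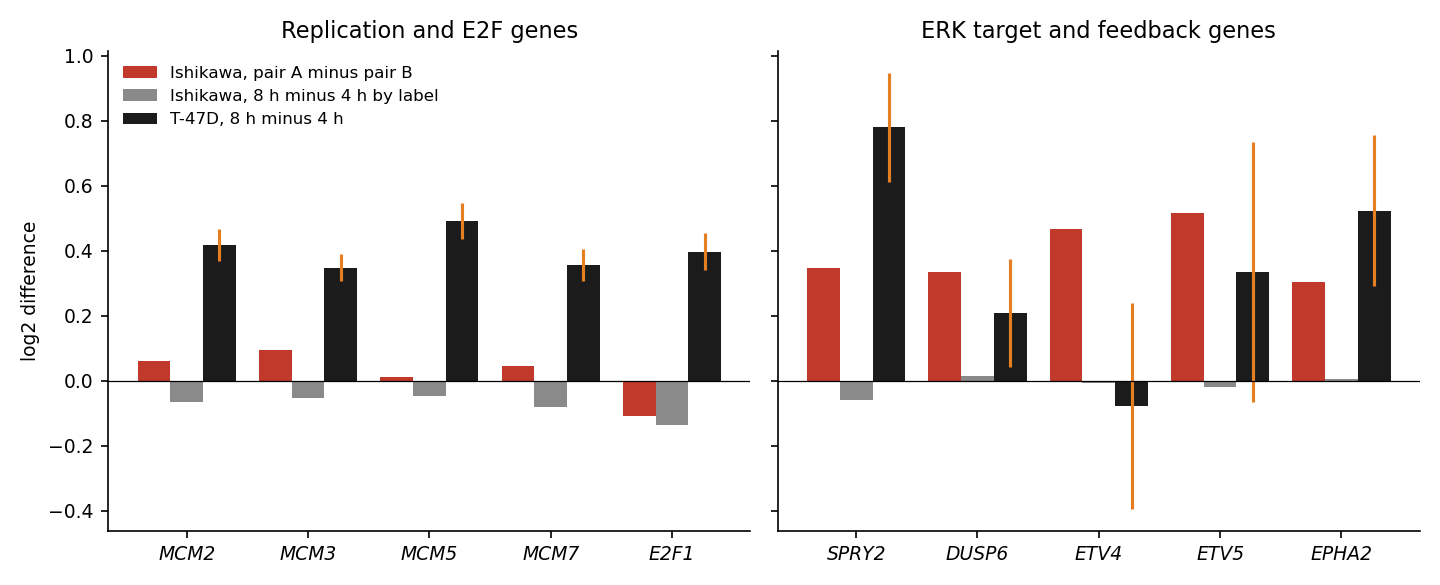
Bars give log2 differences of single genes for Ishikawa pair A minus pair B (red, no error bar), Ishikawa 8 h minus 4 h by label (grey, no error bar) and T-47D 8 h minus 4 h (black, with 1 SE). The replication genes and E2F1 stand between 0.35 and 0.49 in T-47D cells and between -0.11 and 0.09 in the pairs, while the ERK list genes stand between 0.30 and 0.52 in the pairs. In T-47D cells SPRY2 stands at 0.78, ETV5 at 0.34, DUSP6 at 0.21 and ETV4 at -0.08, and of these only SPRY2 was called.

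Promoter sequence was examined for the separating genes, of which 89 of 119 and 234 of 325 had an entry in the RefSeq table. The letters CACGTG (E-box), CCAAT (NF-Y), TGACGTCA (cyclic AMP response element), TGATGCAA (amino acid response), TTTGGCGC or TTTCCCGC (E2F) and the inverted repeat of GGTCA and TGACC with 3 bases between (estrogen response element) were searched on both strands. An E-box was found in 11.2% of promoters of genes higher in A and 8.97% of those higher in B, beside 9.91% for all genes described. CCAAT was found in 37.1% and 31.2%, beside 36.1%. The cyclic AMP response element was found in 3 of 89 (3.37%) and 2 of 234 (0.855%), beside 3.12%. E2F letters were found in 4.49% and 3.85%, beside 3.52%, and amino acid response letters in 1.12% and 0%, beside 0.506%. No difference in these shares was tested. The estrogen response element was found in none of either group and in 0.0166% of all. The promoters of SRM, ASB2 and SERPINB9 are shown with the matched letters in capitals. SRM, a polyamine enzyme, was the 1 separating gene on the ribosome biogenesis list, and ASB2 and SERPINB9 lead the genes higher in pair B. All 3 are on the minus strand of GRCh38.p14, at chr1:11059969-11060268, chr14:93976521-93976820 and chr6:2903260-2903559. SRM holds 1 E-box and 2 CCAAT matches, ASB2 holds 1 E-box and SERPINB9 holds 1 CCAAT match.
SRM: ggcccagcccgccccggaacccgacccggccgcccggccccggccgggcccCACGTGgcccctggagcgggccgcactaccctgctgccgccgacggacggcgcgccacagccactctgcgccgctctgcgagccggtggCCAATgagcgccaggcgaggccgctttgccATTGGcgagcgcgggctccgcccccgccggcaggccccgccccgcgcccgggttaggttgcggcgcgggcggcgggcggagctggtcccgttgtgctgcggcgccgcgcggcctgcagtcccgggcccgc
ASB2: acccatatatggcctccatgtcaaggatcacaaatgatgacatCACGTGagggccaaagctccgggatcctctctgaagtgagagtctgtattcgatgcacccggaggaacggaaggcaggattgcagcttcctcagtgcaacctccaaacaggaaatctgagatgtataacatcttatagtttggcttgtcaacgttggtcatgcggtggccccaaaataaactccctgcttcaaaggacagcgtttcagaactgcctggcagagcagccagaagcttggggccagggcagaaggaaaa
SERPINB9: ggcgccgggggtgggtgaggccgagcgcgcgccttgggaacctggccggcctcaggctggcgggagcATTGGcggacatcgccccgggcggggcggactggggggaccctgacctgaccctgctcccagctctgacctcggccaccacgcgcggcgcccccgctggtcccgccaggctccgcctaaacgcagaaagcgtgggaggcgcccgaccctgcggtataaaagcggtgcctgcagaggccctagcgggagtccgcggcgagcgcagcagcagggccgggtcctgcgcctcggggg

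Transcript properties of the members were also compared, as a description. Median transcript length was 3391 bases for genes higher in A and 3983 bases for genes higher in B, beside 3711 over all genes described. Median GC content was 53.8%, 51.0% and 48.4%. The number of genes detected was 17899 and 18086 in pair A and 18239 and 18506 in pair B. After thinning the 4 libraries to the smallest total, 117 genes were higher in A and 331 higher in B, against 119 and 325 at full depth. The part of library quality in the pair difference was not tested, and pair membership and the handling of libraries cannot be told apart.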

How the data were processed

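Libraries were made from poly(A) RNA with a directional kit. According to the study's methods and the labels, HISAT2 (hg19) and featureCounts were used by the authors to align and count reads, and the deposited values are raw counts in 1 table per cell line of 26364 genes. The settings for strand and multiple alignments are not given in the sources used here. Samples were grouped by the line and time of their labels.

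Tests used edgeR 4.0.16 in R 4.3.3 (filterByExpr, TMM scaling, quasi-likelihood F-test, Benjamini-Hochberg adjusted p under 0.05, time point as factor, no replicate block), with DESeq2 1.42.0 as an alternative. Standard errors were derived from each fold change and its F statistic. Pair differences are differences of mean log2 CPM with a prior count of 2. The separation rule carries no error rate. Scripts were tested on simulated data. The correlation of deviations of same-numbered libraries was -0.252 between Ishikawa 4 h and 8 h and -0.07 to 0.12 otherwise, so replicate numbers were not taken to pair the libraries.

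Named genes were the 10 largest pair differences each way among separating genes with a mean of at least 50 counts, up to 4 separating genes per list (or the 2 largest differences), separating genes called in T-47D cells (8 of the same and 4 of the opposite sign), the largest T-47D changes, and genes that the study names. Not all were described, and 1 result is not reported here. Members and lists were chosen with earlier results of these data known. Positions are GENCODE on GRCh37, and promoters, aligned with Biopython 1.88, are RefSeq on GRCh38.p14. Alternatives were other scalings, filters, prior counts and thresholds, thinning, a replicate block and leaving out libraries. Depth was 41177912 to 64148903 counts a library, so counting error is small except for genes near 1 CPM.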

Additional observations from a re-analysis of the deposited data

Results flagged for a closer look

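The change from 4 h to 8 h by label differed between T-47D and Ishikawa cells for 15 genes, by the interaction test of edgeR. MCM2, MCM3, MCM5, MCM7 and E2F1 were among them, and the others were TPM4, KLHL24, NCALD, STC2, AEBP1, SFXN2, ERBB2, TENM3, FKBP4 and TONSL.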

How the results depend on the processing

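No pair difference of a named separating gene, and no T-47D fold change of a named called gene, changed sign under any alternative run. For separating genes the rule itself fixes the sign when a library is left out, because it asks for pairs without overlap. Their stable sign in those runs is therefore no support. Of 24 named genes called in T-47D cells, 9 passed in all 4 fits without a late T-47D library. T-47D calls (533) were 914 with no filter, 204 at an adjusted p under 0.01 and 943 under 0.1, 170 to 600 without single libraries, and 477 with the replicate block. Ishikawa calls by label (2) were 21 with no filter, 1 at an adjusted p under 0.01, 0 by edgeR with only the 4 h and 8 h libraries (591 at an unadjusted p under 0.05, and 3 called by DESeq2), 2 to 5 without single libraries, and 2 with the replicate block. In a fit of those 4 libraries added after seeing the data, the labelled replicate block gave 5 calls and the crossed replicate block, which is pair A against pair B, gave 33, a count that the choice of pairs from these values sets up. The cell line difference (15) was 236 with no filter, 132 by DESeq2, 0 at an adjusted p under 0.01 and 32 under 0.1, 7 with the replicate block, and 0 to 58 without single libraries. Ishikawa calls at 2 h (666) were 1088 with no filter, 400 at an adjusted p under 0.01, 1104 with the replicate block and 422 to 4642 without single libraries. Genes separating with higher levels in A (119) and B (325) were 263 and 528 at a difference of 0.2, 41 and 98 at 0.5, 220 and 616 when pairs only had not to overlap, and 231 to 310 and 504 to 688 without single libraries. The share of T-47D genes up that were higher in A (79.0%) was 73.3% with unscaled library totals and 74.2% to 80.3% without single libraries. The share of T-47D genes down that were higher in B (64.7%) was 72.7% at a T-47D adjusted p under 0.01 and 63.1% to 68.2% without single libraries. The causes of these shifts were not tested. Unscaled library totals moved the median pair difference over all genes from -0.01 to -0.03.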
